A study of Mus musculus with 35 samples.

Results

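Chromatin accessibility was compared between mouse cells on the first day of exit from naive pluripotency and the same line before exit. The DNMT_WT line carries no knock-out and is the wild-type parent of DNMT_KO, a line that lacks the DNA methyltransferase genes Dnmt1, Dnmt3a and Dnmt3b. Its 3 D1 libraries came from epiblast-like cells (EpiLC) 1 day into differentiation, and its 3 D0 libraries came from embryonic stem cells (ESC) kept in 2i/Lif, a medium with inhibitors of the MEK and GSK3 kinases and the cytokine LIF. These 6 libraries are part of 35 ATAC-seq libraries of 4 lines at 3 days (D0, D1 and D2). Members were chosen by their labels, as all autosomal 2 kb tiles of the genome except those empty in every D0 and D2 library of the series. This left 1155684 of 1231381 autosomal tiles, with coordinates in GRCm38. The test covered 121698 of them, which were the 10% with the highest mean over all libraries plus every tile that holds the start of a protein-coding gene (20801 promoter tiles). Other groups used for reading were DNMT_WT at D2, DNMT_KO at D0 and D1, and TET_WT, the wild-type parent of a line without Tet1, Tet2 and Tet3, at D0, D1 and D2, with 3 libraries each. Each line was 1 line of ESC, and the labels do not say that the replicates came from separate cultures, so p-values measure only the spread between these libraries.

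ATAC-seq uses the Tn5 transposase, which inserts sequencing adapters where DNA is not covered by nucleosomes, so reads pile up at active promoters and enhancers. Naive ESC are held by LIF, which acts through STAT3, and by a network of transcription factors that includes Tfcp2l1, Esrrb, Klf2, Klf4 and Nanog. When the inhibitors and LIF are withdrawn and FGF is supplied, the ERK pathway becomes active, the naive factors are shut off and the cells move to a formative state that resembles the epiblast around implantation. Enhancers of the naive network lose accessibility on this path while promoters of broadly used genes mostly stay open.

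Promoter sequences are shown for 3 genes whose promoter tile was lower at D1 and for Dnmt3l, whose promoter tile was higher, because these starts are where the changes described further on can be read on DNA. Each run is the 250 bases before a start, from RefSeq (GRCm38.p6), and each gene lies on the plus strand. Capitals mark every match, on either strand, to the KLF motif GGGNGTGG (in each run printed here), the POU octamer ATGCAAA (in Nanog) and the TCF/LEF motif ATCAAAG (in Sp5). The runs lie at chr1:118627695-118627944 (Tfcp2l1), chr6:122707239-122707488 (Nanog), chr2:70474673-70474922 (Sp5) and chr10:78049592-78049841 (Dnmt3l).
Tfcp2l1: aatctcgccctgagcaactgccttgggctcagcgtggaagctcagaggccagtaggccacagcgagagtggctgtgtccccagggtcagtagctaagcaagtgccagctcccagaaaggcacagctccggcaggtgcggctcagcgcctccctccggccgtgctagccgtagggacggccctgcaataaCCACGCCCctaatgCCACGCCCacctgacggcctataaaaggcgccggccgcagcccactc
Nanog: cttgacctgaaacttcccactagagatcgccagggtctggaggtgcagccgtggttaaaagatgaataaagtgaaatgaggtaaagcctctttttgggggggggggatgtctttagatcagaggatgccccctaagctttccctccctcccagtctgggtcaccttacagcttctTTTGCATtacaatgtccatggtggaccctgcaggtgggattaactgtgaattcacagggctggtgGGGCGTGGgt
Sp5: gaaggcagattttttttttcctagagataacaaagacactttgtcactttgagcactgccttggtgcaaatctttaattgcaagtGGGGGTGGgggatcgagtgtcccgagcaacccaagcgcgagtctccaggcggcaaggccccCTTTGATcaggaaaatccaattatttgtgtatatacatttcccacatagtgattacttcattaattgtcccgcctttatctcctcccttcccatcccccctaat
Dnmt3l: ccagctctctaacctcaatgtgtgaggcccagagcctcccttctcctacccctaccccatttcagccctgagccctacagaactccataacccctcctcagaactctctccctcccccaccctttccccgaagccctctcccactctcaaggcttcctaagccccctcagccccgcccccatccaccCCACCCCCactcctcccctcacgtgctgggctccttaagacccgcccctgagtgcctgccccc
Relative to the start, the KLF matches of Tfcp2l1 lie at -61 to -54 and at -47 to -40, that of Dnmt3l at -63 to -56, that of Nanog at -10 to -3 and that of Sp5 at -165 to -158. The octamer of Nanog lies at -75 to -69 and the TCF/LEF match of Sp5 at -104 to -98. Other runs were read and not printed. That of Klf2, whose promoter tile was also lower, held 0 matches to these motifs, as did another Dnmt3l start. Further starts of Nanog and Dnmt3l held 3 and 2. The KLF motif was in the 250 bases before the start for 12 of the 46 genes with a lower promoter tile and a sequence (26.1%), 11 of the 42 with a higher one (26.2%) and 18.1% of 19509 genes. The octamer was found for 3 of those 46 genes and 3.94% of all genes, and the TCF/LEF motif for 1 of the 46 and 2.79% of all. Also searched, and not marked in the runs, were the nuclear receptor motif AAGGTCA, the STAT motif TTCCNGGAA, the ETS motif CCGGAAGT, the AP-1 motif TGANTCA and the TATA box TATAAA. They were found for 0, 2, 1, 2 and 7 of the 46 genes, for 1, 0, 0, 1 and 4 of the 42, and for 3.55%, 1.00%, 3.98%, 6.15% and 11.4% of all genes. A match describes these letters and is not a bound site.

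The libraries of D1 differed from those of D0 in ways other than the day. Kept autosomal tiles held 5595150, 6650508 and 3625804 reads in the D1 libraries, against 5960729, 4994764 and 7424947 reads at D0. The median tested tile held 10, 11 and 7 reads at D1 and 10, 8 and 13 reads at D0. Reads on the mitochondrial chromosome made up 27.0%, 28.9% and 9.93% of all reads in the D1 libraries and 0% in those of D0 and D2. Tested tiles held 24.7% ± 1.64 of kept reads at D1 and 24.9% ± 1.22 at D0 (SD, n = 3 each), a difference within the spread between libraries (exact permutation test, 2-sided p = 0.9, where 3 against 3 cannot go below 0.1). As deposited, the median tested tile was 0.70 higher at D1 on the log2 scale, so libraries were brought to 1 distribution (quantile normalisation) before testing. Processing and day cannot be told apart in D1 against D0, and in bulk samples fewer cells with an open tile and less opening per cell cannot be told apart either.

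Few tiles were called as changed over the first day, and more were called as losses than as gains. Of 121698 tested tiles, 985 were lower at D1 (0.809%) and 637 were higher (0.523%; limma, Benjamini-Hochberg adjusted p under 0.05). The median lower tile changed by -1.85 on the log2 scale, and the median higher tile by 1.72. The D1 and D0 libraries did not overlap in 966 of the lower and 611 of the higher tiles, where 8.02% of all tested tiles had every D1 library below every D0 library and 7.65% the opposite. In the lower tiles the median level was -0.74 log2 RPKM (read density scaled for library depth, quantile normalised) at D1 and 1.18 at D0, where the median of all tested tiles at D0 was -0.04. In the higher tiles it was 0.88 at D1 and -0.85 at D0. As D1 minus D0 chose both sets, high levels at D0 in the lower tiles and low ones in the higher tiles follow from the choice. In the D0 libraries of TET_WT, which are not in that difference, the median level was 0.88 in the lower tiles. It was -0.17 in the higher tiles and -0.02 in all tested tiles. Centring each library on its median gave 963 lower and 306 higher tiles, and values as deposited gave 234 and 8281, so the share of losses depends on the scaling. Without D0 replicate 1, 2 or 3 there were 426, 429 or 625 lower tiles, without D1 replicate 1, 2 or 3 there were 354, 372 or 310 higher ones, and without D0 replicate 2 there were 384 higher ones.

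**Figure D1:**
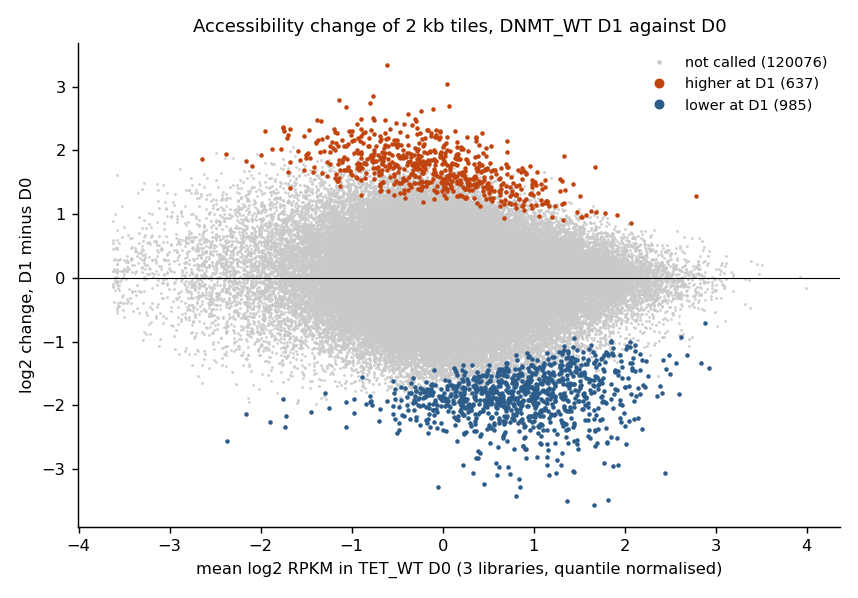
Log2 change from D0 to D1 in DNMT_WT (vertical axis) against the mean log2 RPKM in the D0 libraries of TET_WT (horizontal axis), which are not in that change, for each tested 2 kb tile. The 985 lower tiles (median level 0.88 on the horizontal axis), the 637 higher tiles (-0.17) and the tiles that passed neither test have separate colours, and the sets overlap in level.

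Losses lay away from gene starts. Only 5.58% of the lower tiles were promoter tiles, against 17.1% of all tested tiles, and the median distance to the nearest protein-coding start was 29.2 kb, against 11.0 kb for all. Counts by distance were 55 within 1 kb, 198 from 1 to 10 kb, 527 from 10 to 100 kb and 205 beyond 100 kb. The last class made up 20.8% of the lower tiles, against 9.67% of all tested tiles. The median change was -1.53, -1.78, -1.83 and -1.96 from the nearest to the farthest class. Because promoter tiles entered the test whatever their level, the share was also read among the highest 10% of tiles, where it was 4.62% of the lower and 12.7% of all tiles. The higher tiles held 8.79% promoter tiles, and 17.0% of them lay beyond 100 kb. Genes covered 43.9% of the lower tiles and 48.6% of all. The lower tiles were scattered, since their 985 tiles formed 941 runs of neighbouring tiles, of which 899 were single tiles, 40 were pairs and 2 were longer.

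The lower tiles as a group, which D1 minus D0 chose, had fewer reads at both D1 and D2 than at D0. Their summed reads, as RPM of the kept autosomal reads of each library, came to 4322, 3864 and 3959 at D0, 1245, 1242 and 1184 at D1, and 1508, 1435 and 1409 at D2. Since the D1 libraries chose these tiles, the D1 sum is a description and some return at D2 follows from the choice. How much of the fall was complete at D1 was not tested. The D2 value was at or below the D1 value in 311 of the 985 tiles and above it in 674. D2 minus D0, which uses the same D0 libraries, had a median of -1.53 in these tiles; over all tested tiles 2.06% were lower and 0.733% higher at D2 than at D0.

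The largest single falls lay near genes of unlike function. These 16 were picked among called tiles whose D1 and D0 libraries did not overlap, so that separation follows from the choice. The largest was a tile at chr18:75210001-75212000, inside Dym and 156.4 kb from the nearest start, that of Smad7, an inhibitor of TGF-beta signalling. It had 0.179, 0.451 and 0.276 RPM at D1, against 3.86, 3.60 and 4.58 RPM at D0 (log2 change -3.56 ± 0.48 SE, limma adjusted p = 5.3e-06). These are 1, 3 and 1 reads at D1 and 23, 18 and 34 reads at D0, so at D1 the tile was close to empty. A tile 20.1 kb from S1pr1, a receptor for sphingosine-1-phosphate, at chr3:115694001-115696000, had 0.536, 0.601 and 0.276 RPM at D1, against 8.05, 5.81 and 4.44 RPM at D0 (log2 change -3.50 ± 0.46 SE, adjusted p = 3.5e-06). A tile inside Ppargc1a, a coactivator of mitochondrial genes, 15.3 kb from its start at chr5:51582001-51584000, had 0.536, 0.752 and 0 RPM at D1, against 5.70, 4.20 and 3.23 RPM at D0. In all 3 tiles the lowest D0 library was several times above the highest D1 library.

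The tile with the most reads at D0 among the 16 lay 73.6 kb from Atp2b1, a plasma membrane calcium pump, at chr10:98840001-98842000. It had 1.61, 1.65 and 0.276 RPM at D1, against 9.23, 10.6 and 7.68 RPM at D0 (log2 change -3.06 ± 0.39 SE, adjusted p = 3.5e-06). Among the others were tiles near Filip1l (-3.48), Elavl2, a neuronal RNA-binding protein (-3.28), the inositol trisphosphate receptor Itpr1 (-3.16), the retinol dehydrogenase Rdh7 (-3.09), the ephrin receptor Epha3 (-3.08) and the sialyltransferase St8sia3 (-3.03). The remaining 6 were nearest to Spertl (-3.43), Gbe1 (-3.24), Eloa (-3.09), Edem3 (-3.06), Lrrtm3 (-3.06) and Atg14 (-3.05). The Gbe1 tile was 1121 kb and the Spertl tile 986 kb from the start that names it, so the nearest gene is only a position there. In the Atg14 tile 1 D1 library stood apart from the others, with 0.179, 0.301 and 2.21 RPM at D1, against 4.53, 3.60 and 4.71 RPM at D0.

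**Figure D2:**
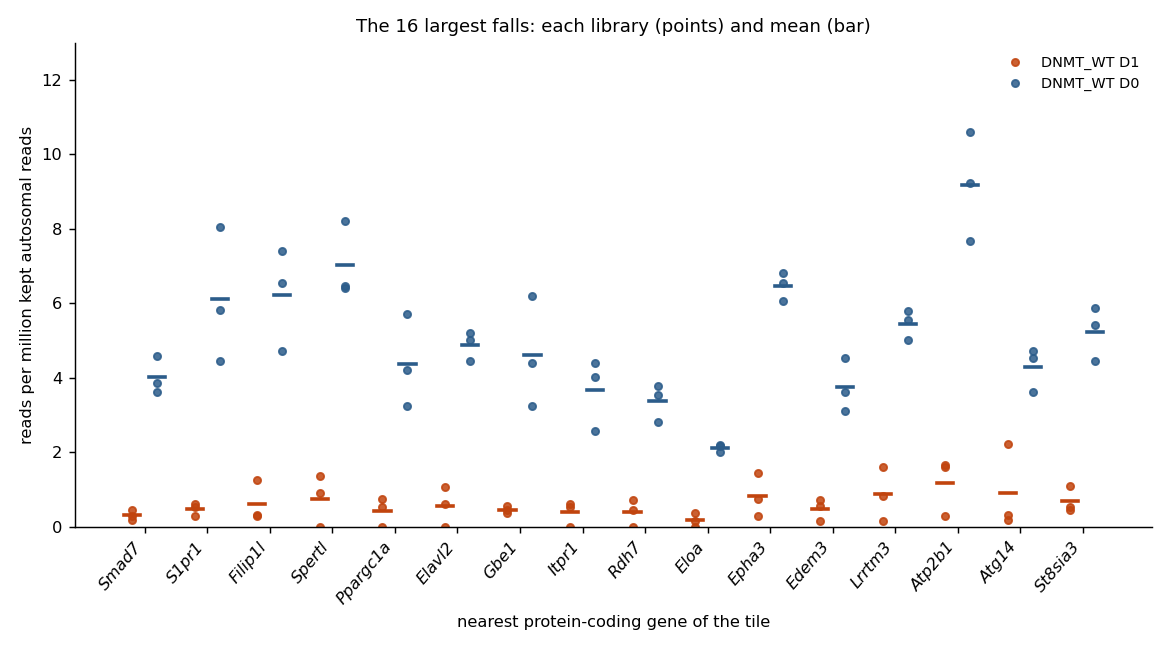
RPM (vertical axis) in each DNMT_WT D1 and D0 library, as points with a bar at the mean of 3, for the 16 tiles with the largest falls (horizontal axis, named by the nearest protein-coding gene). Tiles were picked for libraries that did not overlap, so the 3 D1 points lie below the 3 D0 points in each. The Smad7 tile had at most 0.451 RPM at D1 and at least 3.60 RPM at D0.

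Large gains had few reads at D0, as a choice by D1 minus D0 favours. A tile 41.0 kb from Shisa6, an auxiliary protein of AMPA receptors, at chr11:66568001-66570000 had 5.18, 4.51 and 3.59 RPM at D1, against 0.168, 1.20 and 1.21 RPM at D0 (log2 change 2.74 ± 0.38 SE, limma adjusted p = 5.5e-06). The libraries of the 2 days did not overlap, as the choice required, and at D2 the tile had 4.63, 4.62 and 4.87 RPM. Other large gains were nearest to Dhrs3 (3.04), the homeobox gene Gsx1 (2.85), 4930519L02Rik (2.79), Ncoa7 (2.70), Rabl2 (2.69) and Vps13d (2.66). The Dhrs3 and Vps13d tiles both lie inside Vps13d.

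Clusters of losses marked a small number of loci, and the naive regulator Tfcp2l1 was one of them. Within 50 kb of the start, 11 genes had 3 or more lower tiles, 53 had 2 and 476 had 1. The 11 genes had no higher tile there, but only 0.523% of all tested tiles were higher, so this says little about them. Within 20 kb, 5 genes had 3 or more lower tiles. Slc39a11, a zinc transporter, had 4 lower tiles of 17 tested, with changes between -2.28 and -1.92. At one of them, chr11:113588001-113590000, values were 1.07, 0.902 and 1.65 RPM at D1 and 5.03, 5.81 and 4.31 RPM at D0. Nrp2, a receptor for semaphorins, had 3 lower tiles of 14. The strongest, at chr1:62678001-62680000 and 24.3 kb from the start, had 1.61, 0.902 and 1.38 RPM at D1, against 10.7, 11.4 and 8.35 RPM at D0 (log2 change -2.94 ± 0.47 SE, adjusted p = 7.7e-05). Dab2ip, which encodes a GTPase-activating protein for Ras, had 3 of 46, and its largest change was -1.96 ± 0.33 SE (adjusted p = 0.00019).

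The other loci with 3 lower tiles were Slc9a9, an endosomal sodium-proton exchanger (of 8 tested), C130074G19Rik (of 11), Fndc7 (of 5), Zfp704 (of 25), Nt5dc3 (of 11), Gpr37l1, an orphan receptor (of 15), and Klf2, a Krüppel-like factor of the naive network (of 39). In the third Slc9a9 tile, 11.1 kb inside the gene, the days were barely apart, with 2.50, 0.902 and 1.38 RPM at D1 and 4.70, 5.61 and 2.56 RPM at D0, and the normalised levels overlapped. The 3 Nt5dc3 tiles lie inside its neighbour Ttc41. Without D0 replicate 2, or with values as deposited, no gene had 3 lower tiles within 50 kb.

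At Tfcp2l1, a transcription factor that acts downstream of LIF and STAT3, 4 tiles fell, at 2.9 kb before the start, at the start and at 21.1 and 35.1 kb into the gene. The 3 tested tiles nearest to the start inside the gene did not pass the test (-0.42, 0.04 and 0.52, lowest adjusted p = 0.69). The tile before the start, at chr1:118624001-118626000, had 1.43, 1.65 and 1.38 RPM at D1, against 8.22, 6.41 and 6.73 RPM at D0 (log2 change -2.23 ± 0.37 SE, adjusted p = 0.00011). At the promoter tile, which holds the sequence printed above with its pair of KLF matches, values were 3.93, 3.76 and 4.14 RPM at D1 and 9.39, 8.81 and 8.35 RPM at D0 (-1.07 ± 0.28 SE, adjusted p = 0.033). The tile 21.1 kb into the gene had 4.47, 2.71 and 4.41 RPM at D1, against 11.1, 9.21 and 9.56 RPM at D0, and that at 35.1 kb changed by -2.06 (adjusted p = 0.0081). None of the 4 tiles had overlapping libraries, as was so for 98.1% of all lower tiles, so this largely follows from the call. Over the days, the tile before the start had 8.22, 6.41 and 6.73 RPM at D0, 1.43, 1.65 and 1.38 RPM at D1, and 1.11, 1.89 and 1.83 RPM at D2. The tile at 21.1 kb had 2.59, 2.52 and 1.83 RPM at D2, below its D1 values. The upstream tile thus overlapped its D2 values on the first day, and the intragenic one lay above them.

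**Figure D3:**
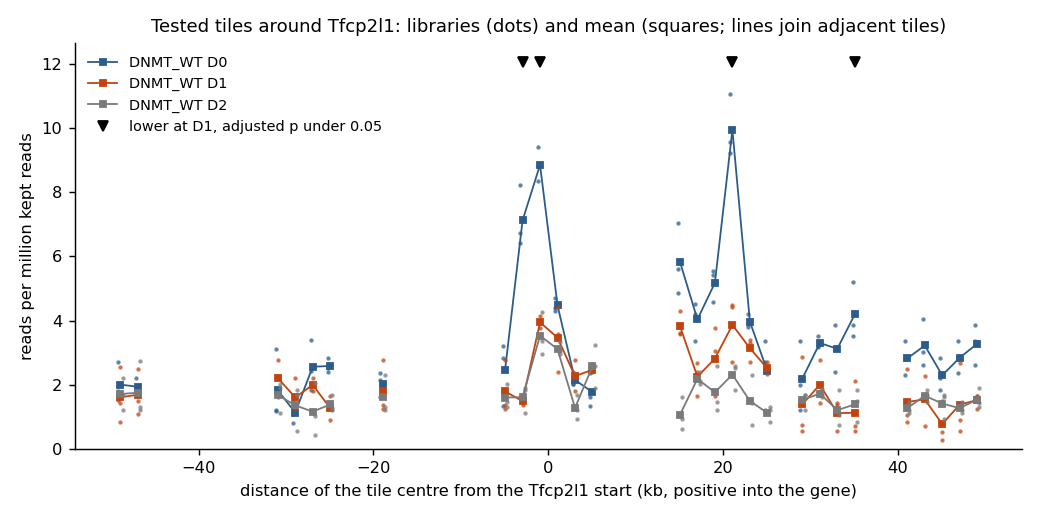
RPM (vertical axis) of the tested tiles by distance of the tile centre from the Tfcp2l1 start in kb (horizontal axis, positive into the gene), for DNMT_WT D0, D1 and D2, with libraries as dots, means as squares joined where tiles adjoin, and triangles over the 4 lower tiles. At the tile 2.9 kb before the start the D1 libraries (1.38 to 1.65 RPM) lie far below those of D0 (6.41 to 8.22 RPM).

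Read per gene, few neighbourhoods were called as changed over the first day. The neighbourhood of a gene averages those tested tiles that lie up to 50 kb from its start and closer to it than to any other start. It could be measured for 19811 genes, with a median of 3 tiles. At D1, 104 neighbourhoods were lower (0.525%) and 96 higher (0.485%; limma, adjusted p under 0.05), of which 62 lower and 75 higher ones held 4 tiles or more. Leaving out any 1 of the 6 libraries left 39 to 69 lower and 39 to 51 higher ones. With a fit of the 6 libraries alone, limma called 0 in either direction, with 1022 lower and 1044 higher at an unadjusted p under 0.05.

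Naive pluripotency genes lost accessibility in part. Of 21 listed genes, 20 had a neighbourhood, of which 2 fell, 0 rose and 17 had a value below 0. The median change was -0.25, against 0.03 for all neighbourhoods, and 13 of the list's 349 tiles were lower and 0 higher (3.72%, against 0.809% of all tested tiles). The mean level of the list was 0.09, 0.15 and 0.20 log2 RPKM at D1 and 0.43, 0.37 and 0.44 at D0, with no overlap between the days. The mean over all neighbourhoods did not overlap either, with D1 above D0. It was -0.129, -0.137 and -0.122 at D1 and -0.146, -0.142 and -0.169 at D0. The neighbourhoods that fell were those of Tfcp2l1 and of Tdh, the threonine dehydrogenase that mouse ESC depend on. Tfcp2l1 had levels of 0.13, 0.20 and 0.05 log2 RPKM at D1, against 0.89, 0.88 and 0.82 at D0 (change -0.74 ± 0.16 SE, adjusted p = 0.017). Tdh had -0.96, -0.34 and -0.44 at D1, against 0.34, 0.31 and 0.51 at D0 (change -0.97 ± 0.20 SE, adjusted p = 0.013), without a single tile past the threshold. The list had 0 lower neighbourhoods without D1 replicate 1 and 1 without D1 replicate 3 or any 1 D0 library. Values as deposited moved the list's median above 0 with the median of all neighbourhoods at 0.63, but relative to all neighbourhoods it lay between -0.28 and -0.20 under every scaling tried.

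Single tiles of other naive genes fell, and these were named after their values were seen. The Nanog promoter tile, which holds the octamer printed above, had 2.86, 2.11 and 2.48 RPM at D1, against 8.22, 4.20 and 5.93 RPM at D0 (log2 change -1.25 ± 0.32 SE, adjusted p = 0.026), and a tile 12.5 kb away changed by -1.81. A tile inside Tet2, a dioxygenase that oxidises methylated cytosine, had 1.79, 2.11 and 1.93 RPM at D1, against 10.7, 6.21 and 5.25 RPM at D0 (-1.83 ± 0.36 SE, adjusted p = 0.0019). The libraries of the 2 days were separate in both genes, as in 98.1% of all lower tiles. Tiles near Tbx3 (-2.24), Fgf4, the ligand that ESC make themselves (-1.57), and Prdm14 (-1.12) also fell. The Klf2 promoter tile had 10.1, 13.2 and 13.3 RPM at D0, 4.47, 5.56 and 7.45 RPM at D1, and 12.0, 7.36 and 8.73 RPM at D2. Its change at D1 was -0.93 ± 0.24 SE (adjusted p = 0.026), D2 minus D0 was -0.22, and D2 minus D1 was 0.71 and did not pass the test (adjusted p = 0.20).

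Some naive neighbourhoods were lower at D2 than at D0 without passing the test at D1, and Klf5 and Zfp42, both factors of the naive network, were among them. For Klf5 the change was -0.22 at D1 and -0.80 at D2 (adjusted p = 0.0037), for Zfp42 -0.25 and -0.73 (adjusted p = 0.0043), for Klf4 -0.24 and -0.74 (adjusted p = 0.061), and for Esrrb -0.30 and -0.52 (adjusted p = 0.083), each against the same D0 libraries, where 1.21% of all neighbourhoods were lower at D2 and 0.676% higher. None of these 4 passed the test of D2 against D1 (lowest adjusted p = 0.12, for Klf5), so a later fall was not shown. Tdh (-0.97 at D1 and -0.93 at D2) and Tcl1 (-0.83, adjusted p = 0.058, and -0.62) had changes at D1 as large as at D2. Genes of the LIF-STAT3 response had 1 of 14 neighbourhoods lower (Tfcp2l1), 0 higher and a median of -0.17. Of their 185 tiles, 5 were lower (2.70%, against 0.809% of all tested tiles) and 1 higher (0.541%, against 0.523%). Tfcp2l1, which the naive list also holds, had 4 of these lower tiles. Without D1 replicate 1 or 3, or D0 replicate 1 or 2, none of the 14 neighbourhoods was lower. Among all list genes, Pramel6 alone had a neighbourhood that passed the test of D2 against D1 (-1.43, adjusted p = 0.023, where 0.136% of all neighbourhoods were lower and 0.0404% higher), with -0.99 at D1 (adjusted p = 0.083) and -2.42 at D2 against D0.

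Gains were found at feedback regulators of the FGF-ERK pathway and at a few pluripotency genes shared by naive and formative cells. The FGF-ERK list had 2 of 15 neighbourhoods higher, 0 lower, a median of 0.29, and 9 higher and 0 lower of 191 tiles (4.71%, against 0.523% of all tested tiles). Its mean level was 0.35, 0.34 and 0.48 log2 RPKM at D1 and 0.07, 0.05 and 0.29 at D0. The days did not overlap here, as they did not in several other lists and over all neighbourhoods. Spry4, an inhibitor of receptor tyrosine kinase signalling, had levels of 0.61, 0.78 and 0.75 at D1, against -0.14, -0.23 and -0.71 at D0 (change 1.08 ± 0.18 SE, adjusted p = 0.0039), and 3 of its tiles rose by 1.60 to 1.92. Dusp6, a phosphatase of ERK, changed by 0.80 ± 0.19 (adjusted p = 0.03), but passed the test in only 4 of 16 alternatives, against 15 of 16 for Spry4. It did not pass with voom, with the replicate block or without any 1 library other than D0 replicate 1, and the list then had 1 higher neighbourhood. Tiles near Spry2 (1.92) and Spred2 (1.82), which also restrain the pathway, and the immediate early gene Myc rose too and were named after their values were seen. The Myc promoter tile had 9.12, 8.12 and 9.10 RPM at D1, against 5.20, 3.40 and 5.79 RPM at D0 (0.96 ± 0.25 SE, adjusted p = 0.028).

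Core pluripotency genes, which stay on through the transition, had 2 of 10 neighbourhoods higher, 0 lower and a median of 0.35. Of their 109 tiles, 5 were higher (4.59%, against 0.523% of all tested tiles) and 0 lower. Without D1 replicate 2 or 3, without D0 replicate 1 or 2, with reads thinned to 1 depth or with no filter on low tiles, 0 of the 10 were higher. Lin28a, an RNA-binding protein that blocks let-7 maturation, had levels of 1.44, 1.21 and 1.51 log2 RPKM at D1, against -0.24, 0.11 and 0.34 at D0 (change 1.32 ± 0.31 SE, adjusted p = 0.03). It did not pass the test when any 1 of the 6 libraries was left out. Utf1, a chromatin factor of pluripotent cells, changed by 0.76 ± 0.17 (adjusted p = 0.023). Values for Pou5f1 and Sox2 were 0.00 and 0.16 and did not pass the test. The formative list had 0 of 18 neighbourhoods past the threshold in either direction at D1 (limma) and a median of 0.22. Of its 201 tiles, 3 were higher (1.49%, against 0.523% of all tested tiles) and 1 lower (0.498%, against 0.809%). At an unadjusted p under 0.05, 5 neighbourhoods were higher and 0 lower. The voom fit called 0 neighbourhoods as well, while leaving out D0 replicate 1 gave 1 higher. The values nearest to it were those of Grhl2, a regulator of epithelial genes (0.70, adjusted p = 0.058), and Dnmt3b (0.50, adjusted p = 0.19), and single tiles near Pou3f1 (1.53), Lef1 (1.48) and Sox4 (1.70) rose. Fgf5, the usual marker of the formative state, had -0.48 (adjusted p = 0.53) with 3 tiles.

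Dnmt3l, the cofactor of the de novo methyltransferases, was the 1 of 13 neighbourhoods of the methylation list that rose (0.91 ± 0.17 SE, adjusted p = 0.0067). The tile of the start printed above had 5.54, 5.11 and 11.0 RPM at D1, against 2.18, 2.40 and 3.10 RPM at D0 (1.48 ± 0.31 SE, adjusted p = 0.0035), and the tile of another of its starts changed by 1.54. A tile before the gene, inside its neighbour Aire, rose by 2.13. The libraries did not overlap at the printed start, as in 95.9% of all higher tiles, and D1 replicate 3 was the highest there.

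The Wnt list had 1 lower and 0 higher of 15 neighbourhoods, with a median of -0.04. The lower one was Sp5, a direct target of beta-catenin, which changed by -1.13 ± 0.24 SE (adjusted p = 0.016) over 3 tiles, and did not pass the test without D1 replicate 1 or 2 or D0 replicate 3. Its promoter tile, with the TCF/LEF match printed above, had 1.07, 1.50 and 1.93 RPM at D1, against 3.52, 4.40 and 6.73 RPM at D0 (-1.74 ± 0.37 SE, adjusted p = 0.004). Axin2, another target, had a tile that rose, with 3.04, 3.91 and 4.41 RPM at D1, against 0.839, 1.40 and 1.35 RPM at D0 (1.73, adjusted p = 0.0065). Of the list's 152 tiles, 1 was lower (0.658%, against 0.809% of all tested tiles) and 2 higher (1.32%, against 0.523%). Single tiles of Sp5 and Axin2 thus went opposite ways, which says little about the list. The Nodal and BMP list had 0 of 14 neighbourhoods past the threshold (limma) and a median of -0.00. Housekeeping genes had 0 of 13 past it and a median of 0.18. At an unadjusted p under 0.05 these lists had 1 and 3 higher neighbourhoods and 0 lower, and the voom fit called 0 in both.

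**Figure D4:**
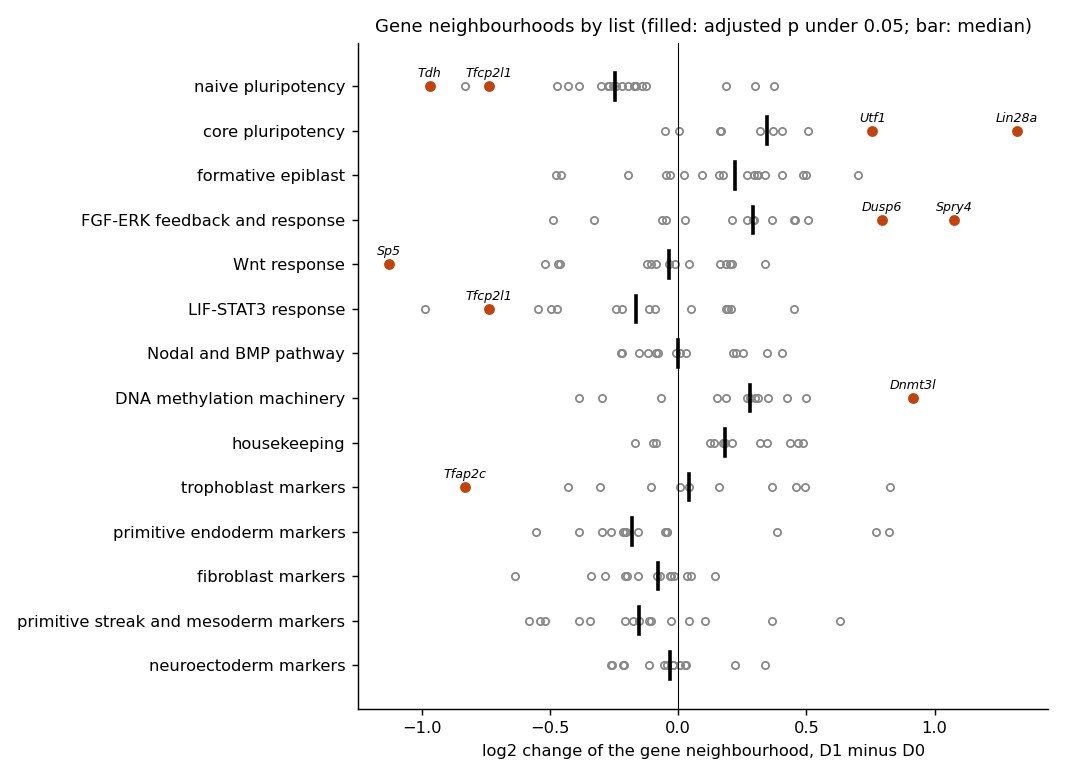
Log2 change at D1 (horizontal axis) of each measured gene neighbourhood, in 1 line per list, with filled points for those past the adjusted p of 0.05, open points for the others and a bar at the list's median. The naive list lies mostly left of 0 (median -0.25) with 2 filled points, and the FGF-ERK list mostly right of 0 (median 0.29) with 2.

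Markers of other cell types gave 1 call among neighbourhoods, and streak tiles were lower at close to the share of naive ones. Trophoblast markers had 1 of 11 neighbourhoods lower, that of Tfap2c, an AP-2 transcription factor of trophoblast and germ cells. It had -0.17, -0.29 and 0.50 log2 RPKM at D1, against 0.82, 0.85 and 0.87 at D0 (change -0.83 ± 0.16 SE, adjusted p = 0.0099), and did not pass without D1 replicate 1 or 2. Primitive endoderm (14 measured), fibroblast (14), primitive streak (15) and neuroectoderm (14) markers had 0 called by limma in either direction, with medians of -0.18, -0.08, -0.15 and -0.03. The voom fit called 0 too, and an unadjusted p under 0.05 was met by 1 endoderm neighbourhood (higher) and 3 streak ones (2 lower and 1 higher), and by 0 fibroblast and 0 neuroectoderm ones. The mean level of the endoderm list was -0.25, -0.17 and -0.25 log2 RPKM at D1 and -0.05, -0.26 and -0.26 at D0, and that of the trophoblast list 0.12, 0.03 and 0.19 at D1 and 0.05, 0.09 and 0.01 at D0, so both overlapped between days. The fibroblast list had -0.27, -0.09 and -0.19 at D1 and 0.06, 0.03 and -0.26 at D0, and the neuroectoderm list 0.13, 0.14 and 0.13 at D1 and 0.18, 0.23 and 0.12 at D0, with overlap as well. The streak list had 0.01, -0.12 and 0.05 at D1 and 0.06, 0.19 and 0.08 at D0, which did not overlap. Of the streak list's 91 tiles, 3 were lower and 0 higher (3.30%, against 3.72% in the naive list and 0.809% of all tested tiles), of the 75 fibroblast tiles 1 was lower (1.33%) and of the 130 neuroectoderm tiles 1 (0.769%), and of the 65 endoderm and 87 trophoblast tiles 0 in either direction (limma). The largest of these falls were at Gsc, a homeobox gene of the organiser (-2.43), and Fn1, fibronectin (-2.25). The Fn1 tile, 19.7 kb from its start, had 1.79, 2.11 and 3.03 RPM at D1, against 11.1, 9.81 and 12.7 RPM at D0. The part of other cell types in the changes was not tested.

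Other neighbourhoods and promoters stood out by size, and were chosen after their values were seen. Among neighbourhoods of 4 tiles or more, the lowest were Cnga4 (-1.50 ± 0.22 SE, adjusted p = 0.0023), S1pr1 (-1.39), Lrriq4 (-1.32), Fndc7 (-1.30) and Ccdc141 (-1.18). Among the highest were the growth factor Ptn (1.43 ± 0.30 SE, adjusted p = 0.014), Lin28a (1.32) and Qser1 (1.14), known in human ESC as a guard of bivalent promoters against methylation. The promoter tile of Epcam, an epithelial adhesion protein, rose by 1.87 ± 0.40 SE (adjusted p = 0.0039), and that of Esrp1, a splicing regulator of epithelial cells, by 2.02. Promoter tiles of Adcy5 (-2.16), Nkx2-5 (-1.96) and Aplnr (-1.90) fell.

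D2 was also tested against D1 in the lower tiles, and few passed. Among the 985 lower tiles, 5 were lower and 14 were higher at D2 than at D1. Of all 121698 tested tiles, 443 were lower (0.364%) and 93 higher (0.0764%), so the 5 lie near the share of all. The D1 libraries chose these tiles for low values, so some return at D2 follows from the choice. D1 and D2 were also processed differently, so neither count shows that a fall went on or turned back. The 5 that went lower were near Tnfrsf21, a death receptor, and Dapl1, Kcnj3, Mtmr12 and Magi3. The Tnfrsf21 tile, at chr17:43036001-43038000, was -1.46 at D1 and -4.32 at D2 against D0 (D2 minus D1 -2.86, adjusted p = 6.9e-06). Among the 14 that were higher at D2 were the Eloa tile named above, which had 2.01, 2.20 and 2.15 RPM at D0, 0.357, 0.15 and 0 RPM at D1, and 1.48, 1.05 and 1.01 RPM at D2 (2.27, adjusted p = 0.0049). They also held the promoter tiles of Adcy5 (1.88) and Nkx2-5 (1.81), whose D2 minus D0 was -0.28 and -0.15. Of the 55 lower promoter tiles, 47 were at or above their D1 value at D2, with a median D2 minus D0 of -0.74.

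The lower tiles were read again in the TET_WT line at D2 against D0, which shares no library with these 6 and holds no D1 library. There 902 of the 985 were below 0 (91.6%, against 47.9% of all tested tiles) and the median was -1.15. At adjusted p under 0.05 (limma), 305 were lower and 0 higher. These were 31.0% of the 985 and 26.9% of the 1132 tiles lower in TET_WT, where 0.93% of all tested tiles were lower. The fit takes 1 spread per tile from all libraries of the series, so calls in TET_WT are not independent of those in DNMT_WT. Counts below or above 0 do not use that spread. All libraries also entered the mean that picked the tested tiles. Of the 16 largest falls, 8 were lower in TET_WT too, among them the Smad7 (-2.42, adjusted p = 0.0014), S1pr1 (-2.56), Atp2b1 (-2.76), Elavl2 (-2.97) and St8sia3 (-2.88) tiles. The Ppargc1a (-0.94), Spertl (-0.93) and Eloa (-0.19) tiles did not pass the test in TET_WT. Among the 55 lower promoter tiles 39 were below 0.

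The higher tiles were read in TET_WT at D2 in the same way. Above 0 were 528 of 637 (82.9%, against 52.1% of all tested tiles), with a median of 0.60, and 80 were higher and 0 lower (12.6% of the 637 and 14.6% of the 547 higher in TET_WT, where 0.449% of all tested tiles were higher). The difference between losses and gains was not tested. The Shisa6 tile was higher in TET_WT (2.57, adjusted p = 7.9e-06). The Epcam promoter was at 2.06 (adjusted p = 0.00082). Of the 9 named list neighbourhoods, 7 passed the test in TET_WT in the same direction, where 1.03% of all neighbourhoods were lower and 0.49% higher. They were Tdh (-1.13), Sp5 (-0.99), Tfcp2l1 (-0.92), Tfap2c (-0.77), Utf1 (1.02), Dnmt3l (0.84) and Spry4 (0.82). Dusp6 (0.48, adjusted p = 0.26) and Lin28a (0.85, adjusted p = 0.22) did not. The 4 Tfcp2l1 tiles had -2.09, -1.20, -1.20 and -1.60, in the order upstream, promoter, 21.1 kb and 35.1 kb, the last with an adjusted p of 0.063.

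**Figure D5:**
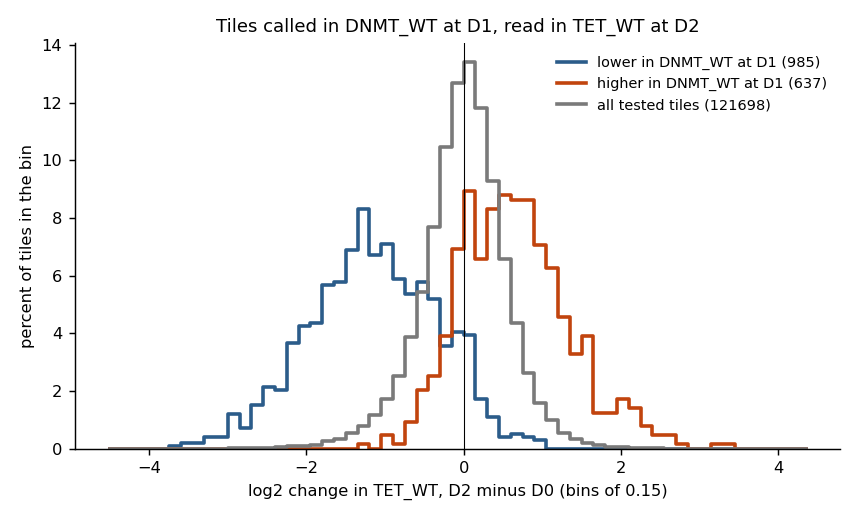
Percent of tiles (vertical axis) by log2 change in TET_WT, D2 minus D0 (horizontal axis, bins of 0.15), for the tiles lower in DNMT_WT at D1, the tiles higher there and all tested tiles. The lower tiles centre on a median of -1.15 and the higher tiles on 0.60, in libraries that are not in the difference that chose them.

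The first day was also measured in TET_WT and in DNMT_KO, with libraries of their own. Their D1 libraries held mitochondrial reads and their D0 libraries held none, as here, so this reading shares the processing of the day. It also shares the spread of each tile in the fit, so calls in these lines are not independent of those in DNMT_WT. In TET_WT, D1 against D0 gave 273 lower tiles (0.224% of those tested), of which 115 were among the 985, or 11.7% of the 985 and 42.1% of the 273. In DNMT_KO it gave 868 lower tiles (0.713%), with 276 shared, or 28.0% of the 985 and 31.8% of the 868. For higher tiles the shared numbers were 48 in TET_WT (7.54% of the 637 and 19.3% of 249) and 99 in DNMT_KO (15.5% of the 637 and 20.2% of 489). The medians at the 985 lower tiles were -0.87 in TET_WT and -1.17 in DNMT_KO. The test of the difference itself, the D1 change in DNMT_WT minus that in the other line, called 0 tiles and 0 neighbourhoods by limma against either line. At an unadjusted p under 0.05 there were 6907 tiles and 1174 neighbourhoods against TET_WT, and 8391 tiles and 1469 neighbourhoods against DNMT_KO. The voom fit also called 0, with 7829 tiles and 916 neighbourhoods against TET_WT and 8050 and 1774 against DNMT_KO at that unadjusted p. No tile or neighbourhood was thus shown to change on the first day in DNMT_WT differently from the knock-out line or from the other parent, which does not show that they change alike.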

How the data were processed

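The submitters' processing notes name Trim Galore 0.6.5, cutadapt 2.3, Bowtie2 2.4.1 and the GRCm38 build; transposase shifts, duplicates and masking are not given in the sources used here. For 2 kb tiles, the authors deposited RPKM on a log2 scale, per the file headers. Nearly every value was a whole number of reads (to 0.01 read) or, for an empty tile, 0.9 read, so reads were recovered from them; small counts make changes near 0 depend on this floor. D1 libraries summed to 2.04 times their library total over all tiles and the D0 and D2 libraries of DNMT_WT to 1.02 times, so D1 was processed differently.

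Quantile-normalised values were tested with limma 3.58.1 (R 4.3.3; 12 group means over 35 libraries, mean-variance trend, 2-sided, Benjamini-Hochberg over 121698 tiles or 19811 neighbourhoods); the method was tested on simulated data. Gene starts came from RefSeq by strand for 16456 genes and from the more accessible end for 4205. Replicate pairs differed by more than sampling noise. Named were the 16 largest falls and 8 largest rises without overlapping libraries (at most 1 tile a gene), list genes with a called neighbourhood and the 10 loci with most lower tiles. Members and lists were chosen with earlier results of these data known. Alternatives changed scaling, filters, pseudocount, depth, samples and replicates. Some named items are not reported here.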

Additional observations from a re-analysis of the deposited data

Results flagged for a closer look

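Outside the tested tiles, 11333 tiles that were empty in every D0 and D2 library of the series held reads in at least 1 DNMT_WT D1 library, and 2151 of them in all 3. They took 1.24%, 1.32% and 0.947% of the autosomal reads of the D1 libraries. The share of reads on the mitochondrial chromosome, which was 0 at D0 and D2, lay between 9.93% (D1 replicate 3) and 28.9% (D1 replicate 2). Of the lower tiles, 1.02% lay within 4 kb of a tile empty in every D0 and D2 library, against 1.36% of all tested tiles. That distance counted empty tiles with and without D1 reads.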

How the results depend on the processing

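The counts depended on scaling, filter and depth. Named changes kept their direction, but they had passed the reported test on the same reads, so this largely follows from the choice. Lower tiles (985 as reported) numbered 234 with values as deposited, 419 with voom on recovered reads, 142 with reads thinned to 1 depth and 426 to 808 when 1 library was left out. Higher tiles (637) numbered 8281 as deposited, 306 with median centring, 149 with voom, 292 with no filter, 95 thinned, 312 with the 6 libraries alone and 310 to 560 with 1 library left out. In the same order of settings, lower neighbourhoods (104) numbered 20 as deposited, 63 with voom, 53 with the highest 5% of tiles, 18 with no filter, 11 thinned, 0 with the 6 libraries and 39 to 69, and higher ones (96) numbered 5184 as deposited, 31 with median centring, 59 with voom, 44 with the highest 5%, 18 with no filter, 19 thinned, 0 with the 6 libraries and 39 to 51. The difference from TET_WT gave 0 to 2 tiles with 1 library left out. That from DNMT_KO gave 2 tiles as deposited, 2 with median centring, 3 with no filter, 0 to 1 with 1 library left out, and 1 neighbourhood thinned. The share of lower tiles below 0 in TET_WT at D2 was 95.3% as deposited, 97.9% with voom and 86.8% to 95.1% with 1 library left out. That of higher tiles above 0 was 70.5% as deposited, 86.6% with median centring, 86.6% with voom, 86.3% with the highest 5%, 85.6% with no filter and 74.1% to 86.8%. The difference in the share of reads in tested tiles was -0.96 to 0.67 points with 1 library left out, and was 0.675 without D1 replicate 2 and 0.348 without D0 replicate 3. Replicate numbers were not used to pair the samples in the reported fit. Correlations between same-numbered D1 and D0 libraries were small (0.004, 0.022 and 0.045), but each was the highest for its D1 library, so pairing was not settled. With the replicate block there were 1111 lower and 735 higher tiles, 82 and 73 neighbourhoods, 1 tile that differed from DNMT_KO, and 89.6% of lower tiles below 0 in TET_WT. Over 97 named tiles the alternatives gave 1520 values, of which 1086 passed the threshold, 434 did not and 0 reversed; over 9 neighbourhoods 84 of 144 passed and 0 reversed. The causes were not tested, beyond fewer libraries and fewer reads where these were removed. A median of about 10 reads in a tested tile limits what can be seen in 1 tile.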
